A study of Mus musculus with 8 samples.

Results

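Galectins are lectins that bind sugar chains ending in beta-galactosides, and galectin-3 binding protein is a secreted glycoprotein that carries such chains. The set described here holds 5 genes, Lgals1, Lgals3, Lgals3bp, Lgals8 and Lgals9, found by symbol among the 51810 genes of the deposited count table. All 5 were among the 16237 genes kept for testing after a filter on low counts.

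Galectins are made in the cytosol and leave the cell by a route that bypasses the secretory pathway, so the same protein can act on sugars outside the cell or, when a lysosome breaks, on the sugars exposed inside it. Galectin-3 (Lgals3) can form clusters with other copies of itself and is known as a product of macrophages and activated microglia. Galectin-8 (Lgals8) and galectin-9 (Lgals9) each carry a pair of sugar-binding domains on a single chain, and both have been described at damaged lysosomes. Galectin-1 (Lgals1) forms dimers. Lgals3bp, also called 90K, belongs to the scavenger receptor cysteine-rich family, binds galectin-3, and is induced by interferon in many cells.

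The cells were microglia of wild-type mice, dissected from white matter or grey matter at 21 or 4 months of age. Myelin was removed on a Percoll gradient, cells were taken with magnetic beads against CD11b, which neutrophils, monocytes and other macrophages also carry, and the polyA RNA was read on an Ion Proton sequencer. There were 2 libraries in each of 4 groups, namely 21-month white matter, 21-month grey matter, 4-month white matter and 4-month grey matter. All mice were wild type, and no treatment is given. The grey matter samples also carry the corpus callosum as their region label, so titles and tissue labels alone tell the regions apart. Whether a group's libraries came from separate or pooled animals is not stated, and the p-values then measure only how far these samples differ, which may be technical. In bulk RNA, fewer cells of a type and less RNA per cell cannot be told apart.

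Library totals ran from 3273258 to 6315782 estimated counts. Of these, the transcripts CT010467.1 and AY036118 together held 38.75% in the first 4-month white and 20.66% in the first 4-month grey library. In the others they held 6.782% to 14.19%. Homeostatic microglia genes, a list of 25 with P2ry12, Tmem119 and Cx3cr1, were all detected in every library and summed to 28490 to 46030 CPM (a library's counts scaled to a common total, after TMM) in 7 libraries. One library differed most from the rest, the first of 4-month white matter, with 8808 CPM for the same list. Oligodendrocyte markers reached a sum of 77040 CPM in it, where the other 7 held 547 to 1389 CPM. Its correlation with the others across genes was 0.638 to 0.753, while the others correlated at 0.813 or more. Results that rest on this white matter library are given with and without it. The first 4-month grey library also stood out, with 26090 CPM of red blood cell markers against 185 to 6936 CPM in the others. That grey library held the highest homeostatic sum and the highest Lgals8 and Lgals9 of all 8 libraries. Comparisons with 4-month grey matter rest in part on it.

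The galectin genes did not share a pattern. Lgals3bp was 2.87-fold higher in 21-month white than in 21-month grey matter, and it was far above every other library in both white matter libraries of that age. Lgals3 was highest in 21-month white and lowest in 4-month white matter, at low counts. Lgals9 kept close step with the sum of the homeostatic microglia genes. Lgals8 stayed within a 1.48-fold range over all 8 libraries, and Lgals1 was near the limit of detection.

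**Figure D1:**
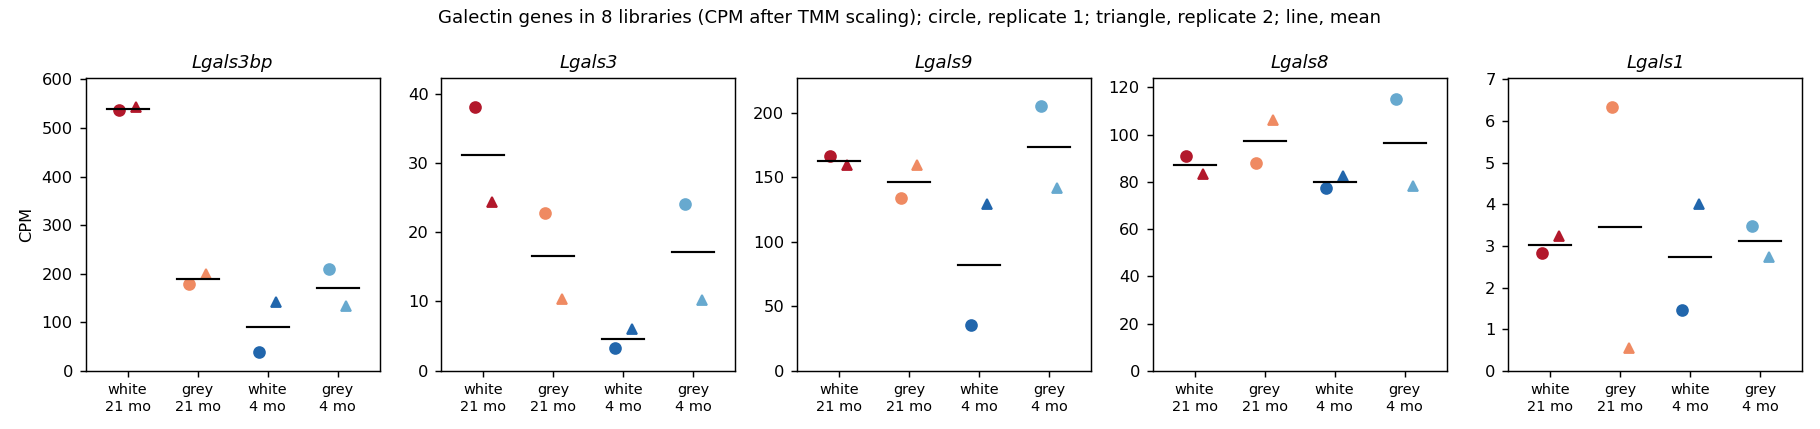
Level of each gene in CPM after TMM scaling (vertical axes, each with its own scale) in the 4 groups, with replicate 1 as a circle, replicate 2 as a triangle and the mean of 2 libraries as a line. Both 21-month white matter libraries lie at 536 and 543 CPM for Lgals3bp, while the other 6 lie between 38.9 and 209 CPM.

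Lgals3bp encodes the secreted partner of galectin-3. It stood at 536 and 543 CPM in 21-month white matter (2268 and 2186 counts) and at 178 and 198.5 CPM in 21-month grey matter (897 and 711 counts). Young white matter had 38.9 and 142 CPM of it, and young grey matter had 209 and 133 CPM. The libraries of old white matter did not overlap with any other library, and the other 3 groups overlapped with each other in the order of their means except that both 21-month grey libraries lay above both 4-month white ones. The group means were 539.6 ± 4.53 CPM in 21-month white, 188 ± 14.7 in 21-month grey, 90.4 ± 72.9 in 4-month white and 171 ± 53.8 in 4-month grey matter (SD, n = 2 each).

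Between the regions at 21 months, white over grey, Lgals3bp had a log2 fold change of 1.52 ± 0.61 (SE) when all 8 libraries were fitted, with a 95% interval of 0.09 to 2.95. It did not pass there (edgeR quasi-likelihood, adjusted p = 1). That fit called no gene in any comparison, so the share of genes called was 0% throughout. At an unadjusted p under 0.05 it held 381 genes between regions at 21 months, 1446 between regions at 4 months, 1316 with age in white matter, 119 with age in grey matter and 455 for the difference between the aging changes. DESeq2 on the same 8 libraries called 54, 515, 369, 0 and 20 genes in these comparisons, or 0.361%, 3.51%, 2.57%, 0% and 0.383% of the genes it tested.

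In the fit of the 4 libraries of 21 months alone, Lgals3bp rose in white matter by 1.51 ± 0.16 on the log2 scale (edgeR, adjusted p = 0.00137), with an interval of 1.16 to 1.87. It was the only one of the 5 genes called there, in a comparison where 1.58% of 14717 genes were called, 145 upward and 87 downward. In simulated counts this fit made more false calls than its nominal rate. With each of the 4 libraries left out in turn, the change was 1.43 to 1.59 and the adjusted p was 0.000363 to 0.0414, with 2.88% and 2.59% of genes called without the first and second white library and 0.539% and 0.886% without the first and second grey one. In each of these 3-library fits the lone library was taken to vary like the pair of the other region. The fit of all 8 libraries with limma's voom and quality weights called it too (1.52 ± 0.24, adjusted p = 0.0154, 0.758% of genes called). DESeq2 on all 8 did not, at 1.504 ± 0.63 (adjusted p = 0.996), nor did edgeR on all 8 with no low-count filter, at 1.53 ± 0.55 (adjusted p = 0.528). Without the first 4-month white matter library, the fit of the other 7 gave 1.52 ± 0.25 (edgeR, adjusted p = 0.107, 0.109% of genes called), and DESeq2 on those 7 gave 1.505 ± 0.27 (adjusted p = 1.1e-05, 1.33% called). The difference was 1.51 with a standard error of 0.16 in the fit of the 21-month libraries alone, and 1.52 with a standard error of 0.61 in the edgeR fit of all 8.

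With age in white matter, Lgals3bp was 5.97-fold higher at 21 than at 4 months by group means, and 3.8-fold higher when only the second 4-month library was used. All 8 libraries together gave a log2 fold change of 2.57 ± 0.63 (edgeR, adjusted p = 0.615, 0% of genes called). DESeq2 on the 8 libraries called it at 2.555 ± 0.63 (adjusted p = 0.00483), a comparison where it tested 14348 genes. Without the first 4-month library, the 3 white matter libraries alone gave a rise of 1.905 ± 0.30 (edgeR, adjusted p = 0.00659, 0.459% of 15680 genes called), while the fit of 7 libraries gave 1.91 ± 0.33 (adjusted p = 0.618, 0.00571% called) and DESeq2 on those 7 gave 1.90 ± 0.33 (adjusted p = 1.58e-05, 0.224% called). In that 3-library fit the lone 4-month library was taken to vary like the old pair.

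In grey matter the means of Lgals3bp at 21 and 4 months were within 1.1-fold of each other, with a log2 fold change of 0.14 ± 0.60 (edgeR, adjusted p = 1). Between regions at 4 months the log2 fold change, white over grey, was -0.92 ± 0.60 (adjusted p = 0.705), and without the first white library -0.25 ± 0.31 (adjusted p = 0.931), while scaling on homeostatic genes turned it to 0.11 ± 0.48 (adjusted p = 0.887). The aging change in white matter exceeded that in grey matter by 2.44 ± 0.86 on the log2 scale, which did not pass (unadjusted p = 0.0235, adjusted p = 1). Without the first 4-month white library that difference was 1.77 ± 0.40 (edgeR, unadjusted p = 0.00196, adjusted p = 1).

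The homeostatic microglia genes did not move together, with 12 above and 13 below 0 between regions at 21 months (edgeR, all 8 libraries). Relative to their sum, Lgals3bp stood at 15.4 and 16.2 CPM per 1000 CPM of those genes in 21-month white matter. The same ratio was 6.24 and 5.81 in old grey matter, 4.42 and 4.86 in young white matter, and 4.54 and 4.06 in young grey matter. On this scale the first 4-month white library lay beside its partner, and both 21-month grey libraries lay above all 4 young ones. The old white matter mean was 2.63-fold the old grey mean and 3.41-fold the young white mean, and the old grey mean was 1.4-fold the young grey mean. With libraries scaled on the homeostatic genes, the fit of all 8 gave 1.39 ± 0.485 between regions at 21 months (edgeR, adjusted p = 1) and 1.77 ± 0.49 with age in white matter (adjusted p = 0.204), while the median of all genes stood at -0.12 and -1.2 on the log2 scale in these comparisons.

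**Figure D2:**
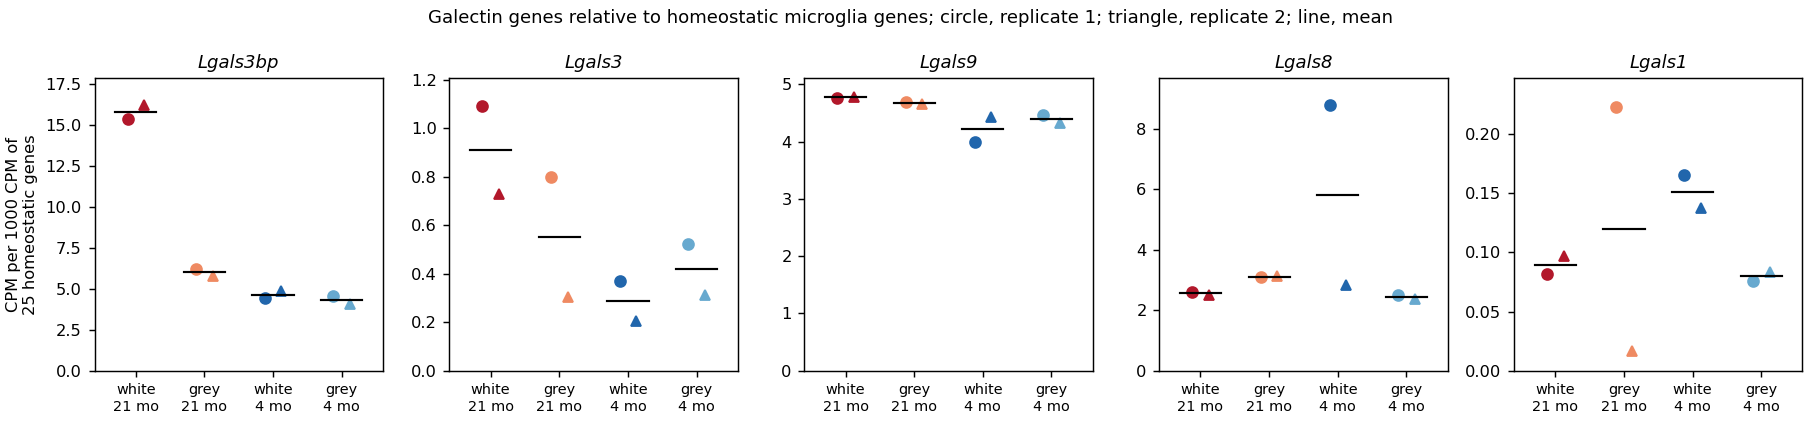
Level of each gene in CPM per 1000 CPM of the 25 homeostatic microglia genes (vertical axes, each with its own scale) in the 4 groups, with replicate 1 as a circle, replicate 2 as a triangle and the mean as a line. Lgals3bp stands apart in 21-month white matter, Lgals9 lies between 4 and 4.78 in all 8 libraries, and the first 4-month white library is the one high point of Lgals8.

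The promoters of Lgals3bp, Lgals9 and Lgals3 are shown because the first pair are known interferon-induced genes and yet differed in how they moved here, and because galectin-3 is the partner of Lgals3bp. Each is the 250 bases before the RefSeq transcription start (GRCm38.p6), written 5′ to 3′ on the gene's strand. Capitals mark matches, on either strand, to a pair of GAAA runs with 2 bases between them, the letters of an interferon-stimulated response element, or to AANNGAAA, the shorter core of interferon regulatory factor sites. The motifs were chosen with these sequences in view, and a match is a description of letters and not a binding site. Of the 5 genes, 4 matched the RefSeq promoter table.
Lgals3bp: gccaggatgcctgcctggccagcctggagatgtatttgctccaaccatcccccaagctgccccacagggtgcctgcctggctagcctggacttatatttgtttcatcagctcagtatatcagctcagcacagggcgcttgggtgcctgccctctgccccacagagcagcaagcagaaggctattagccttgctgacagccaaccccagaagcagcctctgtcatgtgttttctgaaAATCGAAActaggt
Lgals9: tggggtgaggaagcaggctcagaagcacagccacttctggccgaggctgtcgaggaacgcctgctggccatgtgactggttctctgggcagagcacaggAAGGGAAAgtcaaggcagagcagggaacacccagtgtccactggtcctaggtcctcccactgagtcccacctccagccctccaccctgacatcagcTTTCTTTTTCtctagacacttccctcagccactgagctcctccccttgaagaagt
Lgals3: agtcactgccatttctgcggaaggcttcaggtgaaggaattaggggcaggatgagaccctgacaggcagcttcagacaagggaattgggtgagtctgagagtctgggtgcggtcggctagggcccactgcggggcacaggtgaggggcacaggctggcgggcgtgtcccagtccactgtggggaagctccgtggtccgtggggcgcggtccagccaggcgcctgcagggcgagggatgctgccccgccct

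The Lgals3bp window lies at chr11:118401960-118402209 on the minus strand. It held 1 match to AANNGAAA, the run AATCGAAA from 14 to 7 bases before the start. It held no GAAA runs with 2 bases between them, the only spacing searched. The letters GAAAATCGAAA at that place do hold a pair of GAAA runs with 3 bases between them. The Lgals9 window lies at chr11:78984925-78985174 on the minus strand. It held GAAAAAGAAA on the opposite strand, from 55 to 46 bases before the start, and a further match, GAAACAGAAA, lay 16 to 25 bases after it. AANNGAAA matched in 3 places around Lgals9, and the paired runs overlap 2 of them. Lgals3, at chr14:47373610-47373859 on the plus strand, and Lgals8 held no match to either motif, and none of the 4 held TTCNNNGAA, the letters of a gamma-activated site. In 32851 RefSeq windows from 250 bases before to 50 after a start, the paired GAAA runs were present in 3.44%, AANNGAAA in 23.9% and TTCNNNGAA in 8.3%.

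Lgals3 encodes galectin-3 itself. It stood at 38.1 and 24.3 CPM in 21-month white matter (161 and 98 counts) and at 22.8 and 10.3 CPM in 21-month grey matter (115 and 37 counts). Young white matter had 3.27 and 6.02 CPM of it (9 and 24 counts), and young grey matter had 24.1 and 10.2 CPM (138 and 56 counts). The young white libraries were below all other 6, and the old white libraries were above all other 6, with the lower of them at 24.3 CPM against 24.1 CPM in the highest grey library. Counting error alone gave the lower old white library a 95% exact Poisson interval of 19.8 to 29.7 CPM and that grey library 20.2 to 28.4 CPM.

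With age in white matter, Lgals3 was 6.72-fold higher at 21 than at 4 months by group means, and 5.18-fold higher against the second 4-month library alone. All 8 libraries together gave a log2 fold change of 2.72 ± 0.66 (edgeR, unadjusted p = 0.0041, adjusted p = 0.615). DESeq2 called it at 2.72 ± 0.74 (adjusted p = 0.0133), as did edgeR in the white matter libraries alone without the first 4-month library, at 2.35 ± 0.45 (adjusted p = 0.0315). DESeq2 without that library did not, with an adjusted p = 0.374. The direction was the same in all 20 alternative settings of this comparison, and 4 of them called it. Among these was the fit without the second 4-month library, which left the first alone in its group.

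Between regions at 21 months Lgals3 was 1.89-fold higher in white than in grey matter, at 0.91 ± 0.61 on the log2 scale (edgeR, adjusted p = 1), and no fit called it. The size rested on single libraries, at 1.59 ± 0.82 without the first and 0.46 ± 0.75 without the second grey library, and at 0.52 ± 0.80 without the first and 1.202 ± 0.77 without the second white library (edgeR, adjusted p = 1 in each). At 4 months it was lower in white than in grey matter in both libraries, at 0.271 of the grey mean, with a log2 fold change of -1.86 ± 0.65 that did not pass (edgeR, adjusted p = 0.492). Without the first white library it was 0.351 of the grey mean, at -1.48 ± 0.71 (adjusted p = 0.92), without the second white library -2.41 ± 0.815 (adjusted p = 0.0669), and without the first grey library -1.13 ± 0.705 (adjusted p = 0.905). In grey matter the means at 21 and 4 months were 16.6 ± 8.80 and 17.1 ± 9.78 CPM (SD, n = 2 each), a difference smaller than the spread within either group. Per 1000 CPM of homeostatic genes, Lgals3 stood at 1.09 and 0.728 in 21-month white, 0.8 and 0.302 in 21-month grey, 0.371 and 0.206 in 4-month white, and 0.523 and 0.312 in 4-month grey matter. On that scale the regions overlapped at both ages, and the old white libraries still lay above both young white ones. In both grey groups the first library held over 2 times the level of the second.

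Galectin-3 is also made by monocytes and macrophages from the blood, which carry CD11b. All 12 monocyte markers of the list were in the table, and summed to 262.5 and 326 CPM in 21-month white, 707 and 490 in 21-month grey, 83.2 and 225 in 4-month white, and 534 and 419 in 4-month grey matter. The 12 neutrophil markers summed to 998 and 557 CPM in 21-month white, 2997 and 2705 in 21-month grey, 395 and 1123 in 4-month white, and 5474 and 2788 in 4-month grey matter. Csf3r held 674 and 473 CPM of that sum in 21-month white, and 652 and 721 CPM in 21-month grey matter. S100a8 held 38.8 and 7.70 CPM in 21-month white, and 219 and 201 CPM in 21-month grey matter. Of the monocyte sum in 21-month white matter, Fn1 held 128 and 139 CPM, Ace 10.6 and 111 CPM, and Ccr2 25.5 and 12.7 CPM. Neither sum is a measure of cell content. Ly6g was at 0 in the second old white and the first young white library, and Ms4a4c was at 0 in the first young white library. The old white libraries, with the most Lgals3, held lower sums of both marker lists than any grey library. The young white libraries, with the least Lgals3, held the lowest monocyte sums. Within grey matter, the library with more Lgals3 at each age had the higher monocyte and neutrophil sums. The part of monocytes and neutrophils in the level of Lgals3 was not tested in any group.

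**Figure D3:**
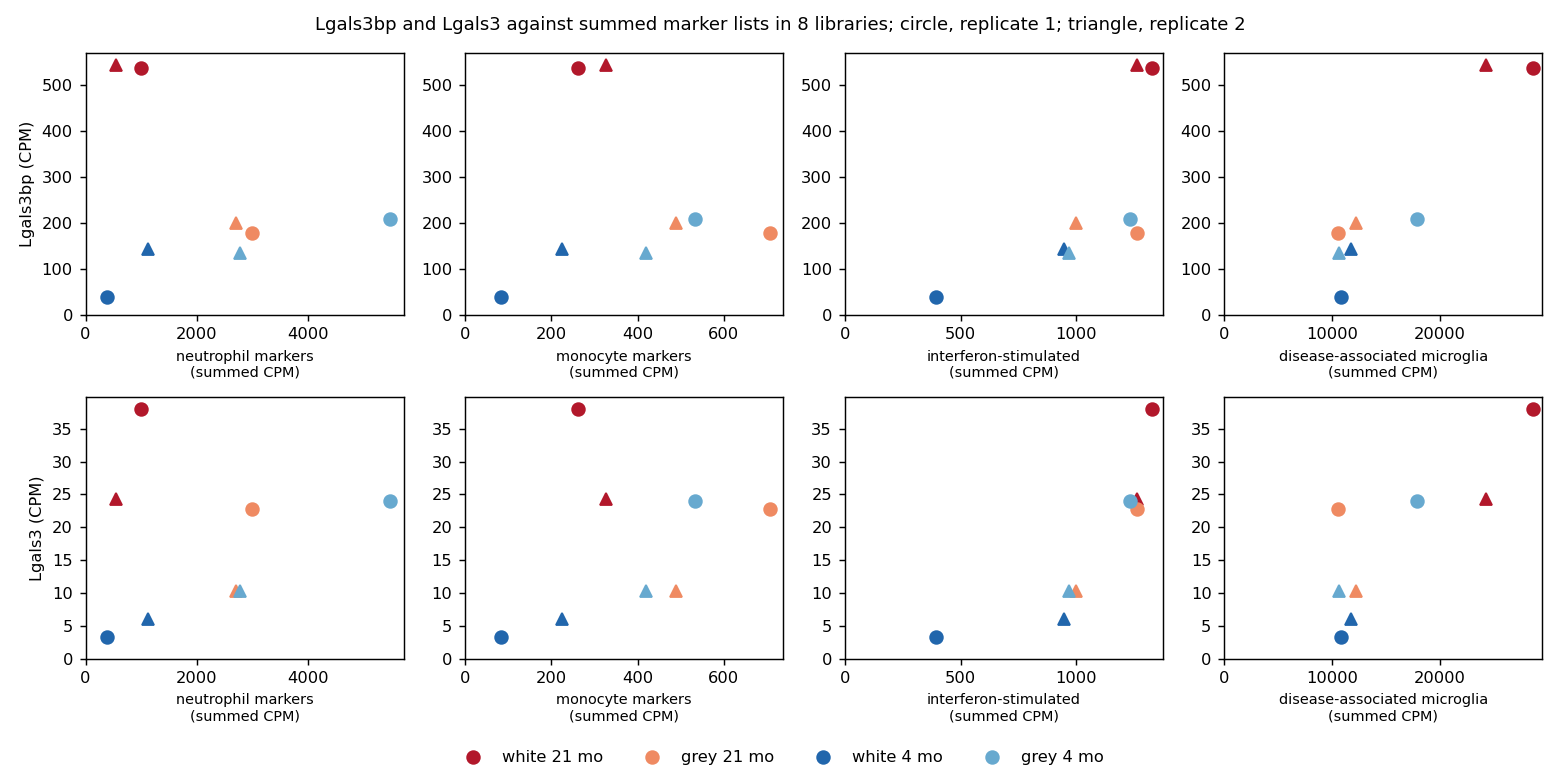
Lgals3bp (upper row) and Lgals3 (lower row) in CPM against the summed CPM of neutrophil markers, monocyte markers, interferon-stimulated genes and disease-associated microglia genes, 1 point per library, coloured by group. The 2 libraries of 21-month white matter have the highest Lgals3bp. Their neutrophil sums are under 1000 CPM, of which Csf3r holds 674 and 473 CPM. Both libraries lie at 24290 and 28580 CPM for the disease-associated genes, against 10550 to 17860 CPM in the other 6.

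Lgals9 encodes galectin-9, a ligand of the receptor TIM-3 (Havcr2). It stood at 166 and 159.7 CPM in 21-month white, 134 and 159 CPM in 21-month grey, 35.2 and 129 CPM in 4-month white, and 205.5 and 142 CPM in 4-month grey matter. The old white libraries lay above the old grey ones by a margin of under 1 CPM at the nearest pair, and the first young white library lay far below the rest. The log2 fold change between regions at 21 months was 0.15 ± 0.58 in the fit of all 8 libraries (edgeR, adjusted p = 1), with an interval of -1.198 to 1.505. In the 21-month libraries alone it was 0.15 ± 0.16 (edgeR, adjusted p = 0.838), with an interval of -0.22 to 0.51.

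Members of the homeostatic list moved apart between regions at 21 months. P2ry12 had 982.5 and 1092 CPM in white and 1465 and 1599 CPM in grey matter. Ctss had 4189 and 3877 CPM in white and 2238 and 2596 CPM in grey matter. Across all 8 libraries, Lgals9 spanned 5.83-fold in CPM and 1.19-fold relative to the sum of the homeostatic microglia genes. Without the first young white library it spanned 1.59-fold in CPM, and 4.335 to 4.778 CPM per 1000 CPM of those genes. Per 1000 CPM of those genes it stood at 4.77 and 4.78 in 21-month white, 4.69 and 4.67 in 21-month grey, 4 and 4.43 in 4-month white, and 4.46 and 4.33 in 4-month grey matter. Of 9370 other genes with a mean of at least 10 CPM, 2 had a range as small on this scale over all 8 libraries, or 0.0213%. That count was not made without the first young white library, whose homeostatic sum was low. The count was a description chosen after the values were seen. With age in white matter the CPM mean was 1.98-fold higher at 21 than at 4 months, 1.26-fold without the first young library, and the log2 fold change of 0.98 ± 0.58 did not pass (edgeR, adjusted p = 0.654). Between regions at 4 months it was -1.075 ± 0.58 (adjusted p = 0.65), and -0.40 ± 0.29 without that library (adjusted p = 0.92). In grey matter the log2 fold change with age was -0.25 ± 0.58 (adjusted p = 1).

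Lgals8 encodes galectin-8, which in human cells marks broken vesicles for autophagy. It stood at 91.1 and 83.4 CPM in 21-month white, 87.9 and 106 CPM in 21-month grey, 77.4 and 82.5 CPM in 4-month white, and 115 and 78.2 CPM in 4-month grey matter. The groups overlapped, except that the old white and the old grey libraries all lay narrowly above both young white ones. The log2 fold changes ran from -0.27 to 0.13 over the 5 comparisons in the fit of all 8 libraries, with the lowest adjusted p at 0.859 (edgeR). In the 21-month libraries alone the interval between regions was -0.54 to 0.22. Its CPM level was nearly the same in both 4-month white libraries, so its ratio to 1000 CPM of homeostatic genes was 8.79 in the first of them and 2.38 to 3.11 in the other 7.

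Lgals1 encodes galectin-1 and was counted 12 and 13 times in 21-month white, 32 and 2 times in 21-month grey, 4 and 16 times in 4-month white, and 20 and 15 times in 4-month grey matter. These are levels of 0.558 to 6.34 CPM, against a limit of 0.523 to 1.09 CPM that a count of 0 allows (3 counts per library). The 2 libraries of 21-month grey matter held the highest and the lowest value, and their exact Poisson intervals, 4.34 to 8.95 and 0.0676 to 2.02 CPM, did not meet. No difference between groups was detected at this depth and with this spread between libraries. The log2 fold changes ran from -0.21 to 0.17, with standard errors of 1.02 to 1.46 (edgeR). A processed copy, Lgals1-ps2, was given 0 to 7 counts, some of them fractions, while the estimated counts of Lgals1 were whole in every library. Whether reads were divided between the pair was not tested.

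Counted as non-overlapping groups in CPM, 3 of the 5 genes were higher in 21-month white than in 21-month grey matter (Lgals3bp, Lgals3 and Lgals9), where 20.9% of all 16237 genes were. At 4 months 2 of 5 were lower in white than in grey matter (Lgals3 and Lgals9), where 15.5% of genes were. With age in white matter 4 of 5 were higher at 21 months (all but Lgals1), where 19.8% of genes were, and in grey matter none of the 5 separated, where 34.5% of genes did in either direction. The comparisons share groups and are not independent, and with 5 genes these counts stand as a description.

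**Figure D4:**
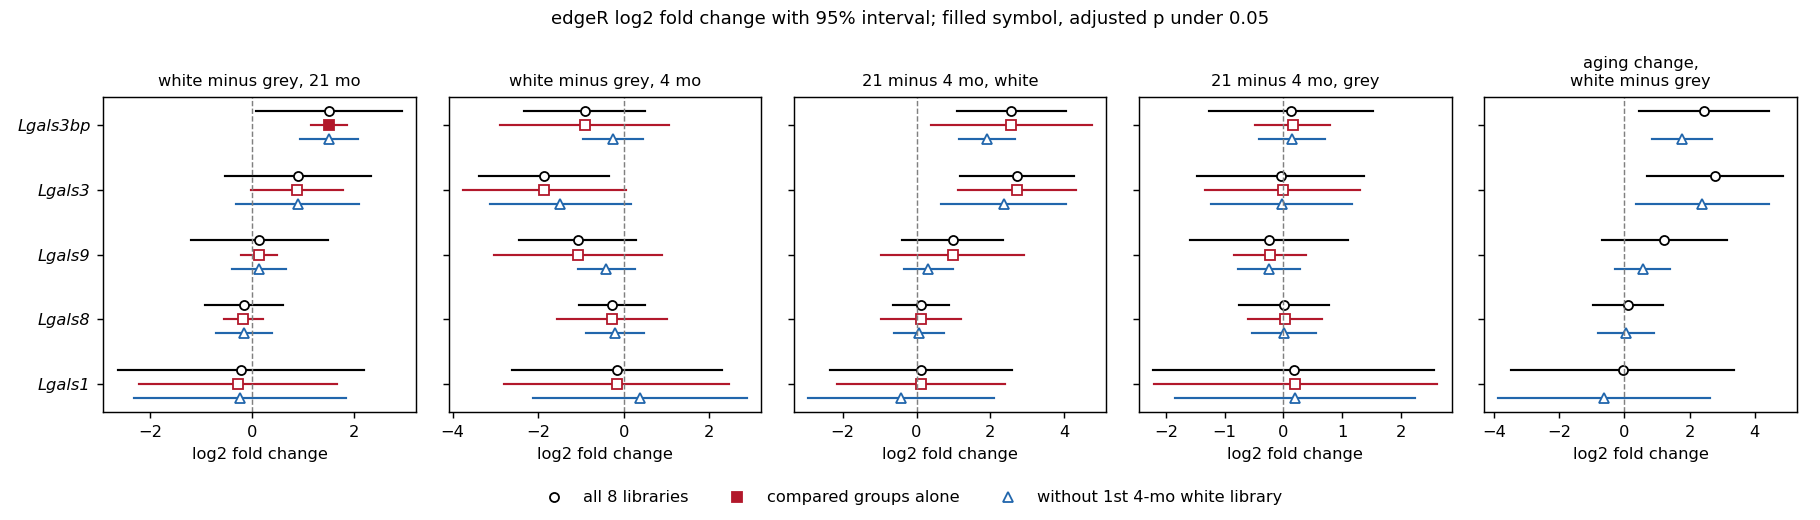
Log2 fold change of each gene (horizontal axes) with its 95% interval in 5 comparisons, from edgeR on all 8 libraries (black circles), on the compared groups alone (red squares) and without the first 4-month white library (blue triangles), with filled symbols for an adjusted p under 0.05. The one filled symbol is Lgals3bp between regions at 21 months in the fit of those 4 libraries, at 1.51.

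Of 7 further galectin family genes, 6 were in the count table. Lgals7 and Grifin had 0 counts in all 8 libraries. Lgals2 and Lgals12 did not pass the low-count filter, and the first 4-month white library held 15 counts of Lgals2 against at most 3 in any other. Lgals4 (0.698 to 4.72 CPM) and the galectin-like gene Lgalsl (1.45 to 11.9 CPM) were tested. Neither was called with all 8 libraries, where 0% of all genes were, nor in the 21-month libraries alone, where 1.58% were.

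Galectins act through glycoproteins on the cell surface and in lysosomes, and 28 of 30 such genes on a list of counter-receptors and ligands were tested. Between regions at 21 months, 20 of the 28 were above 0 on the log2 scale with all 8 libraries, at a median of 0.22, while 51.7% of all genes were above 0 and their median was 0.02. None was called in that fit. In the 21-month libraries alone 1 was called, Cd9, a tetraspanin, at 180 ± 61.3 CPM in white and 72.6 ± 2.87 CPM in grey matter (SD, n = 2 each), a rise of 1.30 ± 0.24 on the log2 scale (edgeR, adjusted p = 0.0292). As 0.985% of all genes were called upward in this fit, 1 of 28 says little about the list. Cd9 is also among the disease-associated microglia genes described below.

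Named for their known roles and not for their values, 3 partners did not pass. Trem2, a lipid receptor of microglia reported to bind galectin-3, averaged 309 ± 49.5 CPM in white and 205 ± 23.7 CPM in grey matter at 21 months, at 0.59 ± 0.18 on the log2 scale in these libraries (edgeR, adjusted p = 0.182). Havcr2, the TIM-3 receptor for galectin-9, averaged 414 ± 20.9 CPM in white and 351 ± 23.8 CPM in grey matter, at 0.23 ± 0.16 (adjusted p = 0.682). Mertk, a receptor for dying cells that binds galectin-3, averaged 689.5 ± 38.5 CPM in white and 729.7 ± 22.4 CPM in grey matter, at -0.09 ± 0.16 (adjusted p = 0.913).

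The enzymes that build galectin ligands had no called member of 20 tested with all 8 libraries, a fit that called 0% of all genes. In the 21-month libraries alone none of 19 tested was called, where 1.58% of all genes were. With all 8 libraries their median log2 fold change between regions at 21 months was -0.14, with 6 above 0. Of 34 tested genes of the lysosome damage response, in which galectins take part, 21 were above 0 at a median of 0.08, and none was called there in the fit of all 8 or of the 21-month libraries. Of 35 tested interferon-stimulated genes, a list that leaves out Lgals3bp and Lgals9, 25 were above 0 at a median of 0.22 and none was called in either fit. Their sum was 1326 and 1263 CPM in 21-month white matter, against 1261 and 1000 CPM in 21-month grey matter, so the groups barely separated. With age in white matter 32 of the 35 were above 0 with and without the first 4-month library, at medians of 1.16 and 0.61. None was called in these fits, which called 0% and 0.00571% of all genes. Of all genes, 51.1% and 51.9% were above 0 there. With age in grey matter 20 of the 35 were above 0, at a median of 0.18. The part of interferon in the level of Lgals3bp was not tested.

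All 30 disease-associated microglia genes, a list that leaves out the 5 galectin genes, were above 0 between regions at 21 months, at a median of 1.2. In the 21-month libraries alone 16 were called and all 16 rose in white matter, where 0.985% of all genes were called upward. These included Spp1, the secreted phosphoprotein osteopontin, at 314 ± 48.6 CPM in white and 4.71 ± 0.34 CPM in grey matter, and Apoe, the lipid carrier, at 3813 ± 925 CPM in white and 260 ± 17.7 CPM in grey matter (SD, n = 2 each). Also called were Igf1, a growth factor, at 63.5 ± 1.16 CPM in white and 5.03 ± 0.39 CPM in grey matter, and Itgax, the integrin chain CD11c, at 187 ± 44.6 CPM in white and 23.3 ± 5.28 CPM in grey matter (SD, n = 2 each). The Lgals3bp change of 1.51 was a little above the median of that list in this fit, 1.19, and well under the 6.03 of Spp1 and the 3.87 of Apoe. Of the 25 homeostatic microglia genes 1 was called in this fit, Crybb1, a crystallin gene, which fell to 24.3 ± 9.23 CPM in white matter, against 63.6 ± 8.39 CPM in grey matter, where 0.591% of all genes were called downward. The disease-associated list was assembled with earlier results of these data known and is no independent evidence of its direction. Choroid plexus and ependymal markers summed to 401 and 12010 CPM in the 2 libraries of 21-month white matter, in which Lgals3bp was nearly equal.

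Markers of blood vessel cells were also set beside Lgals3bp. The 14 endothelial markers summed to 368 and 430 CPM in 21-month white, 241 and 236 in 21-month grey, 446 and 201 in 4-month white, and 238 and 199.8 in 4-month grey matter, with 2 of them at 0 in the first old white and 6 at 0 in the first young white library. Between regions at 21 months 8 of 13 tested were above 0, at a median log2 fold change of 0.60, and none was called with all 8 libraries. In the 21-month libraries alone 1 was called, the glucose transporter gene Slc2a1, which rose to 249 ± 42.7 CPM in white matter, against 124 ± 0.43 CPM in grey matter (SD, n = 2 each; 1.00 ± 0.175 on the log2 scale, edgeR, adjusted p = 0.019). Of these markers, 11 of 13 were above 0 with age in white matter, at a median of 2.03, and of 1.08 without the first 4-month library.

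The 14 pericyte, smooth muscle and fibroblast markers summed to 732 and 1342 CPM in 21-month white, 1067 and 1261 in 21-month grey, 9.45 and 589.8 in 4-month white, and 149 and 911 in 4-month grey matter. Both old groups overlapped in this sum, and 5 of 13 tested markers were above 0 between regions at 21 months. Of these, 12 of 13 were above 0 with age in white matter, at a median of 1.65, and 10 of 13 at 0.67 without the first 4-month library. No member of either list was called with age in white matter in these fits, which called 0% and 0.00571% of all genes. With all 8 libraries 51.1% of all genes were above 0 there. The part of vessel cells in the level of Lgals3bp was not tested.

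The genes whose pattern over libraries was most like each member were found by the root mean square difference of log2 CPM after centring each gene on its mean. Over 8 libraries and 8238 candidate genes, Lgals3bp was closest to Fmn1 (0.257), Vcam1 (0.272) and Chst11 (0.294), where the median candidate stood at 1.18. Without the first 4-month white library they were Pld3 (0.21), Anxa5 (0.213) and Fmn1 (0.215). Fmn1 encodes formin 1, a regulator of actin, Vcam1 an adhesion molecule, and Anxa5 the phospholipid-binding annexin A5.

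Lgals3 was closest to Fgr (0.211), a kinase of myeloid cells, Samd9l (0.261) and the cytokine gene Il1b (0.306), with a median candidate at 1.14. Fgr and Samd9l were again the closest over 7 libraries, followed by Lyz2 (0.318), the lysozyme of myeloid cells. Lgals9 was closest to P2ry6 (0.0524), a nucleotide receptor of microglia, Lmo2 (0.0701) and Renbp (0.0813), with a median candidate at 0.806, and P2ry6 was first over 7 libraries too, at 0.0532, before Blmh (0.0603) and Ilvbl (0.0606).

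Lgals8 was closest to Prep (0.0741), Eaf1 (0.0911) and Tmco1 (0.102), with a median candidate at 0.479, and over 7 libraries to Golt1b (0.0537), Lpcat2 (0.0581) and Prep (0.0614). Lgals1, at its low counts, had no near neighbour, with Ddx10 (0.591), Bloc1s6 (0.592) and Zbtb21 (0.6) first over 8 libraries and Omg (0.538) and Pde7a (0.568) nearest over 7. These distances share the libraries and their depth, and are a description with no test.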

How the data were processed

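RNA of CD11b-selected microglia was measured in 8 libraries. Per the submitters' processing notes, Partek and DESeq2 were used, with no version or role. The authors' deposited table holds estimated counts per gene. In each library 14.55% to 15.93% of those above 0 were fractional, and they were rounded. The other deposited table gives a signal for 18448 genes that 1 factor per library turns into the counts (tolerance 1e-06, 100% of nonzero values), and it served 1 alternative. Aligner, build, annotation and strand use: not given in the sources used here. Reads from overlapping, antisense or near-identical genes therefore cannot be assigned. No line lacked a gene name.

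Genes were kept with filterByExpr and libraries scaled by TMM in edgeR 4.0.16 (R 4.3.3). The 4 group means were fitted by quasi-likelihood, robust, to all 8 libraries, leaving 4 residual degrees of freedom. The 5 comparisons were tested over 16237 genes with Benjamini-Hochberg adjustment, and a gene was called at an adjusted p under 0.05. Standard errors come from the F statistic. With 2 libraries against 2, a two-sided exact permutation test cannot go below p = 0.333, so these models alone were used. In simulated counts the fit of the 21-month libraries alone made more false calls than its nominal rate, and the fit of all 8 missed most changes.

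Alternatives were DESeq2 1.42.0, other scalings and filters, limma 3.58.1 on log2 values (pseudocount 1) or with voom quality weights, a replicate block, the compared groups alone, and each library left out. DESeq2 and the compared groups without the first 4-month white library, the 21-month fit without each of its libraries, and scaling on homeostatic genes were added after seeing the data. The 5 genes and the 17 lists were chosen with earlier results of these data known. Genes named beyond the 5 are the 3 nearest in pattern, candidates having at least 10 CPM, and up to 4 called members of a list by adjusted p, and 1 nearest gene is not reported here. Others are named as chosen for their role. Poisson intervals (95%) and floors cover counting error only.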

Additional observations from a re-analysis of the deposited data

Results flagged for a closer look

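Lgals3 was flagged because white and grey matter differed in opposite directions at the 2 ages, with no overlap between libraries in CPM. Both white matter libraries lay above both grey ones at 21 months (38.1 and 24.3 CPM in white, against 22.8 and 10.3 CPM in grey matter). They lay below the grey ones at 4 months (3.27 and 6.02 CPM in white, against 24.1 and 10.2 CPM in grey matter). The Poisson intervals of the nearest 21-month libraries, 19.8 to 29.7 CPM in white and 18.8 to 27.3 CPM in grey matter, overlapped. Per 1000 CPM of homeostatic genes the regions overlapped at both ages. The difference between the region effects was 2.77 ± 0.89 on the log2 scale and did not pass (edgeR, unadjusted p = 0.0161, adjusted p = 1). Without the first 4-month white library it was 2.38 ± 0.885 (adjusted p = 1).

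Lgals9 was flagged for the same reason, with 166 and 159.7 CPM in white against 134 and 159 CPM in grey matter at 21 months, and 35.2 and 129 CPM in white against 205.5 and 142 CPM in grey matter at 4 months. The difference was 1.23 ± 0.82 (edgeR, adjusted p = 1). It was 0.56 ± 0.37 without the first 4-month white library, in which homeostatic microglia genes were low and oligodendrocyte markers high, and 0.09 ± 0.69 with libraries scaled on the homeostatic genes (adjusted p = 0.943), where the median of all genes stood at -1.5.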

How the results depend on the processing

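The count of called genes moved from 0 in many settings, and the cause was not tested unless stated. Between regions at 21 months it was 54 with DESeq2, 147 with no low-count filter, 123 with voom quality weights, 232 with the compared groups alone, 0 to 19 with 1 library left out, and 174 with DESeq2 without the first 4-month white library. With the 21-month libraries alone it was 457 without the first and 415 without the second white library, and 84 without the first and 144 without the second grey library. Between regions at 4 months it was 515 with DESeq2, 1113 with no filter, 0 to 4222 with 1 library left out, and 19 with DESeq2 without that white library. With age in white matter it was 369, 963, 0 to 4491 and 27 in the same settings, and 72 with the white libraries alone without the first young one. In grey matter it was 17 with no filter and 2 with DESeq2 without that white library. For the difference between aging changes it was 20 with DESeq2, 470 with no filter, 0 to 2422 with 1 library left out and 4 with DESeq2 without that white library. The highest counts arose without the second 4-month white library, which leaves the library that stands apart alone in its group. That edgeR fit called galectin genes among so many others, which says little about the members. Its log2 fold changes for called members with age in white matter were 3.82 for Lgals3bp, 3.27 for Lgals3 and 2.235 for Lgals9. Between regions at 4 months they were -2.17 for Lgals3bp and -2.33 for Lgals9. For the difference between aging changes they were 3.69 for Lgals3bp and 2.49 for Lgals9. Lgals3bp was above 0 in all 23 alternatives between regions at 21 months (1.39 to 1.60, called in 7), and in all 20 with age in white matter (1.77 to 3.82, called in 5). The 7 include the fit of the 21-month libraries alone and its versions with each library left out, which reuse the same libraries. The 5 include the fit without the second 4-month white library. The settings are not independent of each other.

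Directions turned only for values that no fit called, save those of Lgals3bp between regions at 4 months. Lgals1 changed sign with age in grey matter (-0.51 with limma on normalised values, -0.30 with voom, -2.42 to 1.01 with 1 library left out), between regions at 21 months (0.50, 0.27, -1.06 to 2.38, and 2.36 in the 21-month libraries without the first grey one), with age in white matter (-0.42 to 1.07 with 1 library left out, -0.43 and -0.42 with DESeq2 and with the groups alone without the first 4-month white library, -0.74 scaled on homeostatic genes), between regions at 4 months (-1.12 to 0.38, 0.40, 0.39 and 0.90 in those settings) and for the difference between aging changes (0.79 with limma, 0.47 with voom, 0.0054 with the replicate block, -0.88 to 2.56 with 1 library left out). With age in grey matter, Lgals3 turned with DESeq2 (0.0034), RLE scaling (0.0032), library size only (0.15), voom (0.033), homeostatic scaling (0.40) and left-out libraries (-0.73 to 0.69), and left-out libraries gave -0.15 to 0.49 for Lgals3bp, -0.24 to 0.31 for Lgals8 and -0.49 to 0.037 for Lgals9. Left-out libraries gave Lgals8 -0.54 to 0.015 between regions at 4 months and -0.17 to 0.38 for the difference between aging changes. Scaling on homeostatic genes turned Lgals3bp (0.11) and Lgals8 (1.24) between regions at 4 months, Lgals8 with age in white matter (-1.18) and between aging changes (-1.52), and Lgals9 in grey matter (0.089), where the median of all genes shifted to 1.39, -1.2, -1.5 and 0.29. That shift is part of the setting's construction. Of the member values under alternatives, 438 kept direction and side of the threshold, 21 newly passed it and 41 turned.

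With the replicate block edgeR called 0 genes in every comparison. Deviations of same-numbered libraries correlated at -0.137 to 0.427 over the pairs of groups. The highest value, 0.427, was between white and grey matter of 4 months, and the value between the regions at 21 months was 0.0514. Whether the numbers pair the samples at either age is not shown. With 2 libraries a group, Lgals1 at 2 to 32 counts and Lgals3 at 9 to 161 are limited by few counts and by differences between libraries. In 21-month grey matter the Poisson intervals of the 2 libraries did not meet for either gene. Nor did they for Lgals3 in 4-month grey matter.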
